A study of Mus musculus with 36 samples.

Results

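A set of 10 genes that act as receptors or enzymes of macrophages were followed through 36 bulk mouse tumor libraries. They were taken by name as Mrc1, Msr1, Cd163, Stab1, Marco, Folr2, Arg1, Nos2, Csf1r and Adgre1, and all 10 were found once among the 37417 genes counted. Each tumor grew under the skin of a mouse, wild type and 12 weeks old per the labels, from 1 of 3 mouse cancer cell lines. Per the labels, the colon line CT26, from a carcinoma, was put into BALB/c hosts, and C57BL/6J hosts received either MC38, from a colon adenocarcinoma, or PancO2, from a pancreatic adenocarcinoma. Mice of each line were injected into the peritoneum with 10 mg/kg of anti-PD-1, of anti-CTLA4 or of control IgG from rat serum, which gave 9 labelled groups of 4 mice. Anti-PD-1 and anti-CTLA4 are antibodies against inhibitory receptors of T cells, and no group went without an injected antibody. RNA was taken at end stage from whole tumors, so cancer cells, blood vessels, fibroblasts and immune cells were measured together.

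Macrophages take up particles, modified lipoproteins and dying cells through scavenger receptors, a family of unrelated surface proteins with broad ligand binding. Their survival depends on CSF1R, the receptor for the growth factors CSF1 and IL-34, and F4/80, the product of Adgre1, is the usual surface marker of mouse macrophages. Macrophages exposed to interleukin 4 or to tumors often carry the mannose receptor CD206 (Mrc1), the scavenger receptor CD204 (Msr1) and the hemoglobin scavenger receptor CD163, and make arginase 1 (Arg1). Macrophages activated by interferon and bacterial products make inducible nitric oxide synthase (Nos2), which competes with arginase for arginine. In mouse tumors the study marked macrophages by F4/80 and the immunosuppressive ones among them by CD206. It used CD204 and CD163 for human macrophages. The data here address how far the transcripts of these and related genes moved together.

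The libraries did not follow their strain labels, so the genes are described by 3 expression classes. H2-Ea-ps, a polymorphic pseudogene of the major histocompatibility complex that is silent in C57BL/6 mice and expressed in BALB/c mice, was at 32.8 to 134 CPM (counts of a gene per 1000000 counts of all genes in the library) in 12 libraries and at most 0.0845 CPM in the other 24. Cp, which encodes the copper-carrying ferroxidase ceruloplasmin, was at 1389 to 2168 CPM in 12 further libraries and at most 611 CPM elsewhere. Libraries above 10 CPM of H2-Ea-ps are called H2-Ea-expressing, libraries above 1000 CPM of Cp are called Cp-high, and the remaining 12 are called the neither class. No library met both limits, and in 16 of the 36 libraries H2-Ea-ps went against the labelled strain. The H2-Ea-expressing class held 4 libraries labelled CT26, 4 labelled MC38 and 4 labelled PancO2, the Cp-high class 3, 4 and 5, and the neither class 5, 4 and 3. The cause was not tested, and libraries are named only by what they are labelled. The classes were known from these data, and differences between them are given as descriptions without a test.

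Libraries held 7883106 to 41751023 counts in genes. The tumor of mouse 71, labelled PancO2 anti-PD-1 and H2-Ea-expressing, stood apart (library 71) with the lowest total and with 15.7% of its counts in mitochondrial genes, against 2.80% to 4.35% in the other 35. The number of called correlations in its class and the PancO2 anti-PD-1 fold changes are given with and without it. The limit that a count of 0 allows was 3 counts, or 0.0719 to 0.381 CPM, which covers counting error only. The 18 macrophage markers other than the 10 genes were all measured at a mean of at least 1 CPM. Their sum ran from 1864 to 3229 CPM in the H2-Ea-expressing class, from 2559 to 4708 CPM in the Cp-high class and from 3390 to 4960 CPM in the neither class.

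Promoter sequences are shown for the 4 receptor genes whose levels moved together most closely in the neither class, as described further on, since members that move together invite a comparison of their upstream DNA. Each is the 220 bases from 250 to 31 bases before the RefSeq start site, 5′ to 3′ on the coding strand, from RefSeq on GRCm38.p6. Capitals mark matches on either strand to GAGGAA, the core bound by the myeloid factor PU.1, or to TGCTGA, a core recognized by MAF factors. Folr2 has 2 listed start sites, and the first is shown.
Mrc1, chr2:14229164-14229383, plus strand: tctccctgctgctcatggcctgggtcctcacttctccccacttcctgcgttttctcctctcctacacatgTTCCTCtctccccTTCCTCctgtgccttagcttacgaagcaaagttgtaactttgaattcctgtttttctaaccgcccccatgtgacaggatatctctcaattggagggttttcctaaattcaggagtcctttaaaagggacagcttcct
Stab1, chr14:31168672-31168891, minus strand: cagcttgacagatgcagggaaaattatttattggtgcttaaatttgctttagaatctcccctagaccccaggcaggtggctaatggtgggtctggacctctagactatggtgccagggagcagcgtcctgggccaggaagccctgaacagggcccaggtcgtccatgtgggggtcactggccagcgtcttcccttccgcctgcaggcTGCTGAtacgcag
Folr2, chr7:101857221-101857440, minus strand: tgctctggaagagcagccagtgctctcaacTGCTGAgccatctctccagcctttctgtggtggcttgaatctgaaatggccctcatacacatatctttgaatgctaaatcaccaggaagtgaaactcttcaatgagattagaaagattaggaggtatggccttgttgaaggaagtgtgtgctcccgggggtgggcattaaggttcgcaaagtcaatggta
Cd163, chr6:124304401-124304620, plus strand: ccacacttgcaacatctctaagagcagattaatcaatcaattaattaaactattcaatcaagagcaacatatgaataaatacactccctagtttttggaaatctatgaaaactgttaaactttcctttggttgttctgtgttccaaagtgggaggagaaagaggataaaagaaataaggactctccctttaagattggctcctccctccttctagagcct

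The Mrc1 window held 2 matches to the PU.1 core, at -180 to -175 and at -167 to -162 from the start site. Stab1 held 1 match to the MAF core at -43 to -38, and Folr2 held 1 at -220 to -215. The Cd163 window held neither, and no window held TTC and GAA separated by 4 bases, the palindrome bound by STAT6, the factor downstream of interleukin 4. Among all 32851 promoter windows of this length, 20.4% held the PU.1 core, 14.4% the MAF core and 5.22% the STAT6 palindrome. None of the 3 motifs was thus common to all 4 windows, although Stab1 and Folr2 both held the MAF core. A match of letters is not a binding site. Of the 10 genes, 5 were matched in the RefSeq table used here, and Marco, the one not printed, held 1 PU.1 match at -146 to -141. Windows of Msr1, Arg1, Nos2, Csf1r and Adgre1 were not analysed here.

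The mannose receptor gene Mrc1 and the scavenger receptor gene Msr1 separated the Cp-high class from both others. Mrc1 (ENSMUSG00000026712; GRCm38 chromosome 2, 14229392 to 14332057) was at 24.3, 55.6 and 95.1 CPM as the lowest, median and highest Cp-high library. It was at 157, 264 and 447 CPM in the H2-Ea-expressing class and at 245, 310 and 662 CPM in the neither class. Every Cp-high library was thus below every other library, by 4.75-fold between medians against the H2-Ea-expressing class and 5.57-fold against the neither class, while the latter pair of classes overlapped. In bulk tumors, fewer cells of a type and less RNA per cell cannot be told apart. Msr1 (ENSMUSG00000025044; chromosome 8, 39581685 to 39642673), whose trimeric product binds modified lipoproteins, showed the same separation. Its lowest, median and highest values were 27.1, 50.4 and 81.1 CPM in Cp-high libraries, 154, 216 and 318 CPM in H2-Ea-expressing libraries and 150, 181 and 234 CPM in the neither class. The medians of the latter classes were 4.28-fold and 3.59-fold above the Cp-high median.

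Csf1r and Adgre1 did not share that order, and their levels in the Cp-high class overlapped those of the neither class. Csf1r (ENSMUSG00000024621; chromosome 18, 61100598 to 61132149) was at 198, 263 and 357 CPM in the Cp-high class and at 252, 318 and 451 CPM in the neither class. In the H2-Ea-expressing class it was at 85.8, 133 and 207 CPM, wholly below the neither class, whose median was 2.39-fold higher, and overlapping the Cp-high class. Adgre1 (ENSMUSG00000004730; chromosome 17, 57358691 to 57483527) was at 74.2, 95.8 and 121 CPM in Cp-high libraries, 73.5, 95.0 and 147 CPM in the neither class and 43.9, 54 and 88.0 CPM in H2-Ea-expressing libraries. All 3 classes overlapped for Adgre1. The class with the lowest Mrc1 and Msr1 was therefore not the class with the lowest pan-macrophage transcripts.

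Stab1 and Arg1 were highest in the neither class. Stab1 (ENSMUSG00000042286; chromosome 14, 31139013 to 31168641) encodes stabilin-1, a scavenger receptor of macrophages and of sinusoidal endothelium that also sorts cargo inside cells. It was at 255, 367 and 660 CPM in the neither class, above every Cp-high library (91.3, 144 and 231 CPM) by 2.54-fold between medians. In the H2-Ea-expressing class it was at 79.5, 173 and 290 CPM, overlapping both other classes. Arg1 (ENSMUSG00000019987; chromosome 10, 24915221 to 24927484) showed the clearest gap of the 10 genes between the neither class and the rest. It was at 282, 394 and 568 CPM in the neither class, against 55.9, 84.2 and 153 CPM in the H2-Ea-expressing class and 14.9, 69.4 and 134.6 CPM in the Cp-high class. The neither class was wholly higher, by 4.68-fold and 5.67-fold between medians. Arginase 1 is not particular to macrophages, and its cell of origin is not resolved in these libraries.

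Folr2, the folate receptor of tissue-resident macrophages, was low in every library and lowest in the Cp-high class. Folr2 (ENSMUSG00000032725; chromosome 7, 101839988 to 101857194) was at 0.663, 2.23 and 7.80 CPM in that class, wholly below the H2-Ea-expressing class at 8.51, 11.3 and 20.2 CPM, a 5.09-fold difference of medians. The neither class, at 3.80, 10.4 and 26.8 CPM, overlapped both. Cd163 (ENSMUSG00000008845; chromosome 6, 124304656 to 124330527), which takes up hemoglobin bound to haptoglobin, did not separate any pair of classes. Its values were 1.51, 11.3 and 23.7 CPM in the H2-Ea-expressing class, 8.76, 13.9 and 20.2 CPM in the Cp-high class and 5.01, 13 and 51.2 CPM in the neither class. Cd163 medians were thus close across classes while its spread within a class was wide, with a coefficient of variation of 91.0% in the neither class, 52.8% in the H2-Ea-expressing class and 26.8% in the Cp-high class.

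Nos2 varied more within classes than between them. Nos2 (ENSMUSG00000020826; chromosome 11, 78920787 to 78960254) was at 9.14, 11.5 and 31.2 CPM in the H2-Ea-expressing class, 4.40, 23.8 and 122 CPM in the Cp-high class and 9.99, 42.2 and 108 CPM in the neither class. All pairs of classes overlapped, and the Cp-high libraries alone spanned a 27.7-fold range. Marco (ENSMUSG00000026390; chromosome 1, 120474538 to 120505024), a collagen-like scavenger receptor known from marginal zone and alveolar macrophages, was barely detected. It had 283 counts over the 36 libraries, 0 counts in 6 H2-Ea-expressing libraries and in 1 Cp-high library, and its highest library was at 2.39 CPM, so no fold is given for it.

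**Figure D1:**
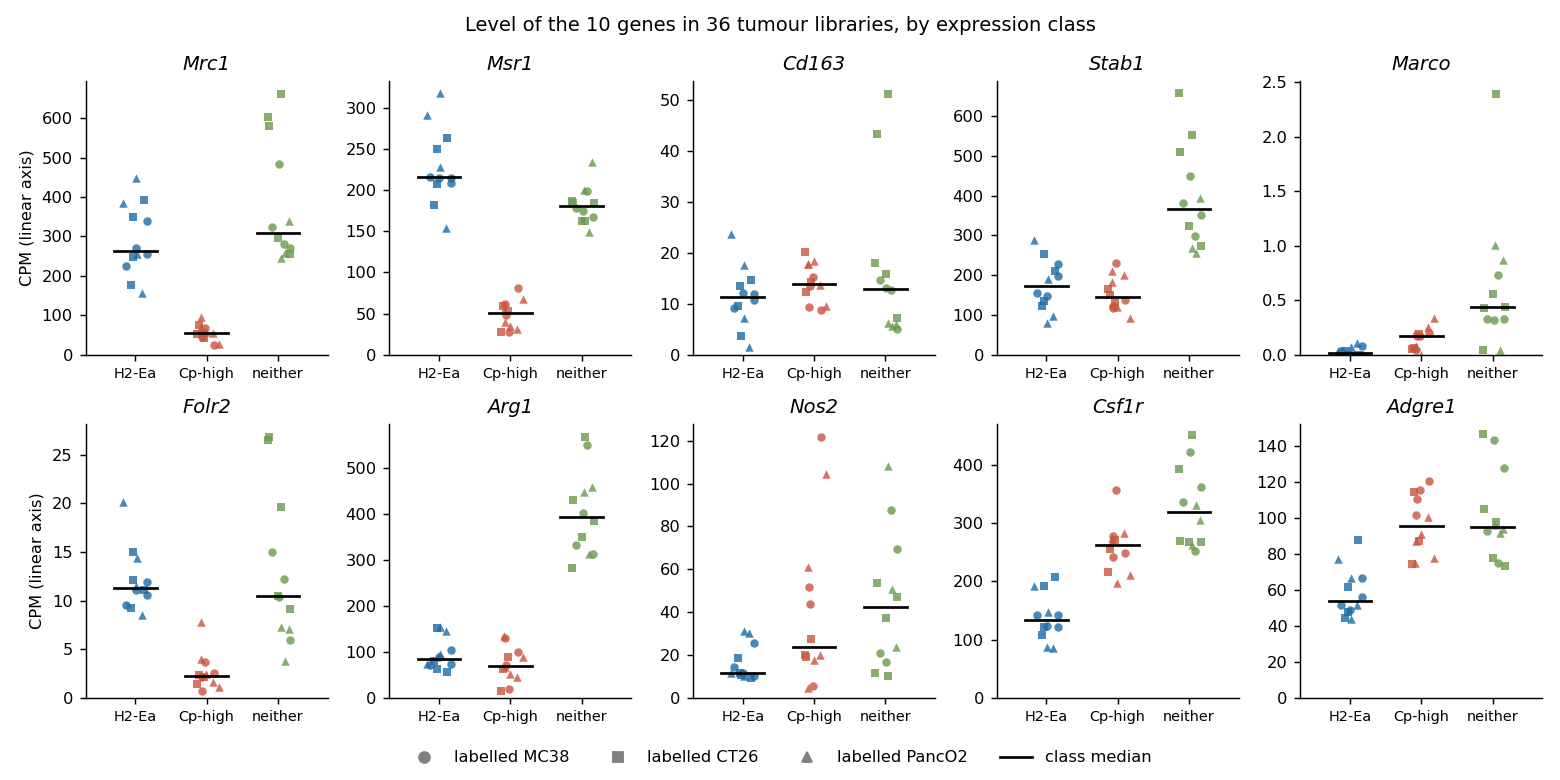
Levels in CPM of the 10 genes in each of the 36 libraries, on linear axes, by expression class, with circles for libraries labelled MC38, squares for CT26 and triangles for PancO2, and a bar at the class median. Mrc1 and Msr1 sit lowest in all Cp-high libraries, Arg1 sits highest in all libraries of the neither class, and Cd163 and Nos2 overlap throughout.

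Ranges of all 14125 genes with a mean of at least 1 CPM give the background for these separations, and 9 of the 10 genes, all but Marco, reached that mean. Between the H2-Ea-expressing and Cp-high classes, 3 of the 9 (Mrc1, Msr1 and Folr2) did not overlap, all 3 wholly higher in the H2-Ea-expressing class, against 31.7% of all genes, 12.2% wholly higher and 19.5% wholly lower. Between the H2-Ea-expressing and neither classes, 2 of the 9 (Arg1 and Csf1r) did not overlap, both wholly lower in the H2-Ea-expressing class, against 26.9% of all genes, 9.13% wholly higher and 17.7% wholly lower. Between the Cp-high and neither classes, 4 of the 9 (Mrc1, Msr1, Stab1 and Arg1) did not overlap, all 4 wholly lower in the Cp-high class, against 30.7% of all genes, 14.7% wholly higher and 16% wholly lower. The 10 genes thus separated the classes about as often as other genes did, and the classes differ across much of the transcriptome. The median log2 ratio of the 9 genes was 0.26, -0.81 and -1.34 in these comparisons, first class over second, against -0.07, -0.09 and -0.03 over all genes.

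Class carried more than 50% of the variance of 7 of the 10 genes, as it did for 65.3% of all 14125 genes, so this is no particular trait of them. On the log2(CPM + 1) scale, variance between classes made up 89.7% of the total for Msr1, 85.6% for Mrc1, 76.8% for Arg1, 75.0% for Csf1r, 70.4% for Folr2, 63.4% for Stab1 and 59.97% for Adgre1. It was 46% for Marco, 18.9% for Nos2 and 6.14% for Cd163. Variance between the 3 labelled models made up 8.11% for Cd163, the highest share of the 10, and 0.0674% for Arg1, the lowest.

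Per kilobase of exon (RPKM), levels can be compared between genes. In the H2-Ea-expressing class the median order was Mrc1 (41.4 RPKM), Arg1 (37.8), Msr1 (34), Csf1r (23.0), Stab1 (16.9), Adgre1 (16.7), Folr2 (7.33), Nos2 (2.60), Cd163 (2.08) and Marco (0.00923). Neighbors overlapped in that order except Adgre1 with Folr2 and Cd163 with Marco. Within libraries, Stab1 was above Adgre1 in only 3 of the 12. In the Cp-high class Csf1r led at 45.5 RPKM, followed by Arg1 (31.2), Adgre1 (29.6), Stab1 (14), Mrc1 (8.72), Msr1 (7.95), Nos2 (5.40), Cd163 (2.55), Folr2 (1.44) and Marco (0.0901), where Adgre1 and Stab1, and Folr2 and Marco, did not overlap. Mrc1 thus stood above Csf1r in the one class and below it in the other. In the neither class Arg1 at 177 RPKM stood clear of Csf1r (55.1), Mrc1 (48.6), Stab1 (35.7), Adgre1 (29.3), Msr1 (28.5), Nos2 (9.56), Folr2 (6.74), Cd163 (2.37) and Marco (0.225), and all neighbors below Arg1 overlapped. Within libraries of that class, Csf1r was above Mrc1 in 5 of the 12.

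Dividing by Csf1r sets each gene against a transcript that most macrophages carry. Mrc1 over Csf1r had a lowest, median and highest value of 0.0974, 0.198 and 0.353 in the Cp-high class, 0.750, 1.11 and 2.15 in the neither class and 1.59, 1.87 and 5.14 in the H2-Ea-expressing class. The Cp-high class was again wholly lowest, by 9.43-fold and 5.60-fold between medians, which is a wider gap to the H2-Ea-expressing class than in CPM. For Msr1 over Csf1r, all 3 classes separated, at 0.0764, 0.197 and 0.325 in the Cp-high class, 0.360, 0.568 and 0.790 in the neither class and 1.27, 1.61 and 3.66 in the H2-Ea-expressing class. The highest ratio of both genes was in library 71, whose Csf1r was 86.9 CPM, and without it the highest H2-Ea-expressing ratios were 2.79 for Mrc1 and 1.80 for Msr1.

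Stab1 followed Csf1r more closely. Its ratio to Csf1r was 0.915, 1.16 and 1.87 in the H2-Ea-expressing class and 0.771, 1.16 and 1.89 in the neither class, so the medians of these classes were equal to 3 digits while their Stab1 levels in CPM differed. The Cp-high class was wholly below both, at 0.422, 0.596 and 0.769, by 1.95-fold and 1.94-fold. Divided by Adgre1 or by the summed macrophage markers instead, Stab1 in the Cp-high class reached 2.44 and 0.0646 and overlapped the H2-Ea-expressing class, whose lowest values were 1.81 and 0.0320. The Folr2 ratio was 0.00238, 0.00895 and 0.0289 in the Cp-high class and 0.0536, 0.0936 and 0.133 in the H2-Ea-expressing class, a 10.5-fold difference of medians without overlap, with the neither class at 0.0115, 0.0368 and 0.0993.

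The ratio of Arg1 to Csf1r kept the neither class (0.719, 1.29 and 2.19) above the Cp-high class (0.0532, 0.275 and 0.499), but the H2-Ea-expressing class (0.271, 0.725 and 1.68) then overlapped both. Ratios of Cd163, Nos2 and Adgre1 overlapped between all pairs of classes, with medians of 0.0375 to 0.0779 for Cd163, 0.0959 to 0.146 for Nos2 and 0.302 to 0.416 for Adgre1. Of the 8 genes compared, 4 separated the H2-Ea-expressing from the Cp-high class, against 34.4% of all genes divided by Csf1r in the same way. The count was 1 of 8 against 46.9% between the H2-Ea-expressing and neither classes, and 4 of 8 against 18.2% between the Cp-high and neither classes.

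**Figure D2:**
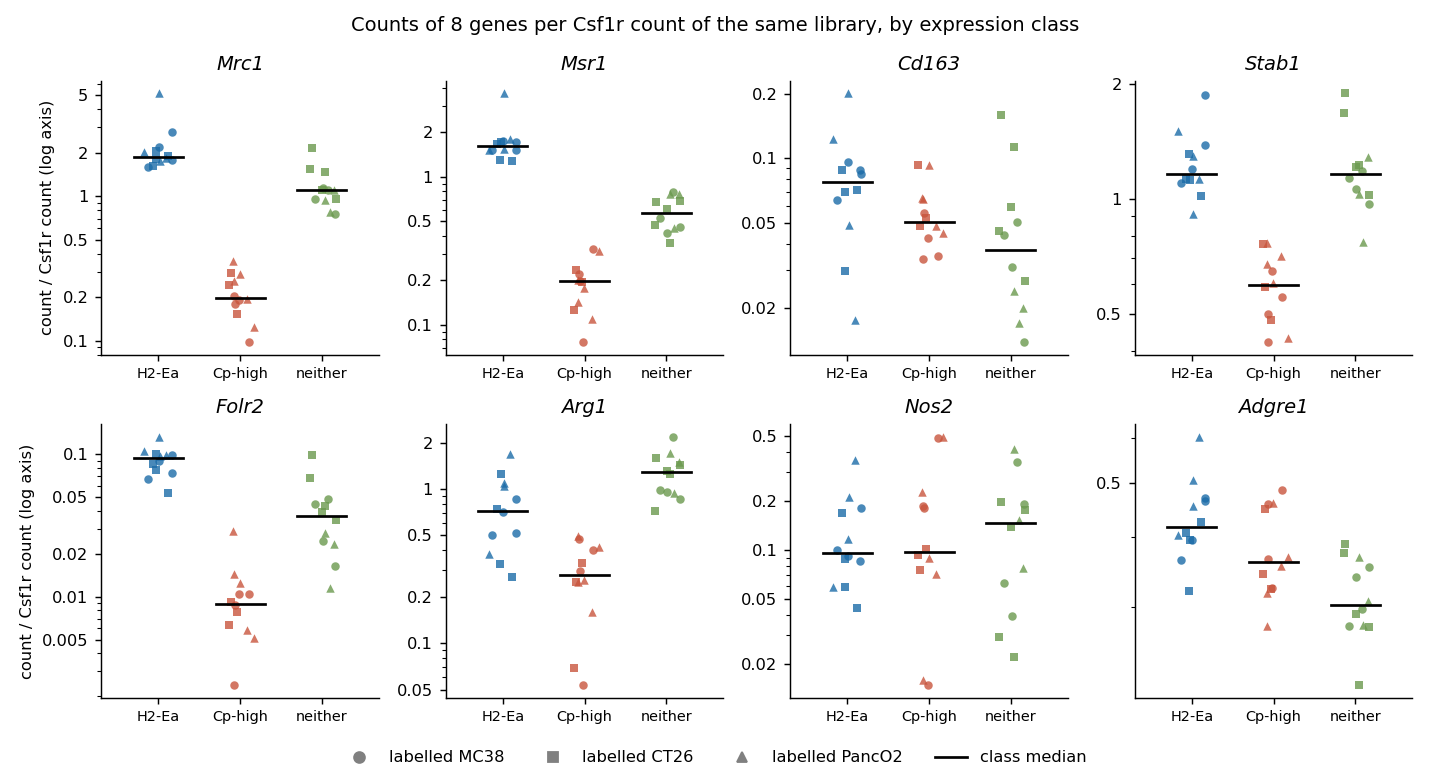
Ratio of 8 genes to Csf1r in each library, on log axes, by expression class, with a bar at the class median and marker shapes for the labelled model. The Cp-high libraries lie below all others for Mrc1, Msr1 and Stab1, and the classes lie in 3 separate bands for Msr1.

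Whether the genes moved together was asked within each class of 12 libraries, so that the gaps between classes could not set the result. Pearson's r was taken on log2 CPM with a prior count of 2 for 45 pairs in each of 3 classes, with p from 100000 two-sided permutations adjusted by the Benjamini-Hochberg method over all relations of the 3 classes. No batch is named in the labels, and no value within a batch can be given. Called pairs had an adjusted p under 0.05, which 7 pairs reached in the H2-Ea-expressing class, 3 in the Cp-high class and 8 in the neither class. No pair was called in all 3 classes, 2 were called in exactly 2 classes and 14 in 1 class. By Spearman's rho, 6, 2 and 3 pairs had an adjusted p under 0.05. Among the called pairs, 5, 3 and 6 kept an unadjusted p under 0.05 without the 2 libraries farthest from the median of the first gene. A pair called in 1 class and not in another was not tested for that difference.

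In the neither class 5 of the 6 pairs among the receptor genes Mrc1, Stab1, Folr2 and Cd163 were called. Mrc1 and Stab1 gave r = 0.948 (permutation p = 1e-05, the smallest that 100000 permutations can give; adjusted p = 0.00135; Spearman's rho 0.951, adjusted permutation p = 0.0027). Cd163 and Folr2 gave r = 0.868 (adjusted permutation p = 0.00594; rho 0.937, adjusted p = 0.00405). Mrc1 with Cd163 (r = 0.828), Mrc1 with Folr2 (r = 0.795) and Stab1 with Folr2 (r = 0.794) had adjusted permutation p of 0.0131, 0.0266 and 0.0268, and by Spearman's rho these 3 did not pass (adjusted permutation p = 0.0645, 0.0945 and 0.0957). The sixth pair, Cd163 with Stab1, was not called (r = 0.710, adjusted permutation p = 0.0669). The 5 called relations kept an unadjusted permutation p of 0.0351 or less without the 2 farthest libraries. Mrc1 and Stab1 then still gave r = 0.924, and Cd163 and Folr2 gave r = 0.859.

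Other relations of the neither class involved the 2 arginine-using enzymes. Nos2 ran against Stab1 (r = -0.762, adjusted permutation p = 0.0394) and against Csf1r (r = -0.779, adjusted permutation p = 0.0374). Without the 2 farthest libraries neither kept a permutation p under 0.05 (r = -0.542, permutation p = 0.108, and r = -0.611, permutation p = 0.0626). Both stayed negative with these fewer libraries. Neither relation passed by Spearman's rho (adjusted permutation p = 0.0957 and 0.0615). Arg1 rose with Marco (r = 0.855, adjusted permutation p = 0.00855), and r was 0.720 (permutation p = 0.0157) without the 2 farthest libraries, although Marco had only 1 to 68 counts per library there.

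In the Cp-high class Msr1 was in every called relation. It rose with Arg1 (r = 0.849, adjusted permutation p = 0.00594; rho 0.818) and with Nos2 (r = 0.754, adjusted permutation p = 0.0394; rho 0.734, adjusted p = 0.0766, not called by rho), and fell with rising Cd163 (r = -0.760, adjusted permutation p = 0.0394; rho -0.804). Without the 2 farthest libraries r was 0.738, 0.727 and -0.738, with permutation p of 0.0161, 0.0170 and 0.0165. The classical and alternative markers Nos2 and Arg1 were thus not on opposite sides with respect to Msr1 in this class. Msr1 and Cd163 had the opposite sign in the H2-Ea-expressing class (r = 0.804, adjusted permutation p = 0.0228) and r = -0.188 in the neither class, and the difference between classes was not tested.

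In the H2-Ea-expressing class the genes fell into a pair of called groups when all 12 libraries were used. Mrc1 rose with Msr1 (r = 0.922, adjusted permutation p = 0.00202) and both rose with Cd163 (r = 0.765 and 0.804, adjusted permutation p = 0.0268 and 0.0228). Stab1, Csf1r and Adgre1 rose together, with r of 0.883 for Stab1 and Csf1r, 0.825 for Csf1r and Adgre1 and 0.764 for Stab1 and Adgre1 (adjusted permutation p = 0.00594, 0.0157 and 0.0374). Cd163 ran against Arg1 (r = -0.723, adjusted permutation p = 0.0394). Mrc1 with Cd163 and Cd163 with Arg1 did not hold without the 2 farthest libraries (r = 0.575, permutation p = 0.0774, and r = -0.488, permutation p = 0.152).

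Library 71 decided how separate those groups were. It was highest of its class in Mrc1 (447 CPM) and Msr1 (318 CPM) and lowest in Stab1 (79.5 CPM) and Adgre1 (43.9 CPM). Without it, 16 pairs were called in place of 7, and Mrc1 and Stab1 gave r = 0.910 (adjusted permutation p = 0.0045) in place of 0.385. Msr1 and Csf1r then gave r = 0.954 (adjusted permutation p = 0.000675) and Mrc1 and Csf1r gave r = 0.855 (adjusted permutation p = 0.0123). In the other 11 libraries all 10 pairs among Mrc1, Msr1, Cd163, Stab1 and Csf1r were called, at r of 0.748 to 0.954. By Spearman's rho, 4 of these 10 had an adjusted permutation p under 0.05. Library PancO2 anti-PD-1 64 was lowest of the class in Mrc1, Msr1, Cd163 and Csf1r. Without both libraries, pairs among Mrc1, Msr1, Stab1 and Csf1r kept r of 0.765 to 0.929. Cd163 then gave r = 0.575 with Mrc1 (permutation p = 0.0774) and 0.634 with Msr1 (permutation p = 0.0499). Relations of Cd163 with Stab1 and Csf1r were not computed without both. In all 12 libraries they gave r = 0.473 and 0.529, and neither was called. Without PancO2 anti-PD-1 64 and CT26 anti-CTLA4 34, and with library 71 kept, they gave r = 0.132 (permutation p = 0.715) and 0.221 (permutation p = 0.54). The calls of Cd163 with these genes thus rested on few libraries.

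**Figure D3:**
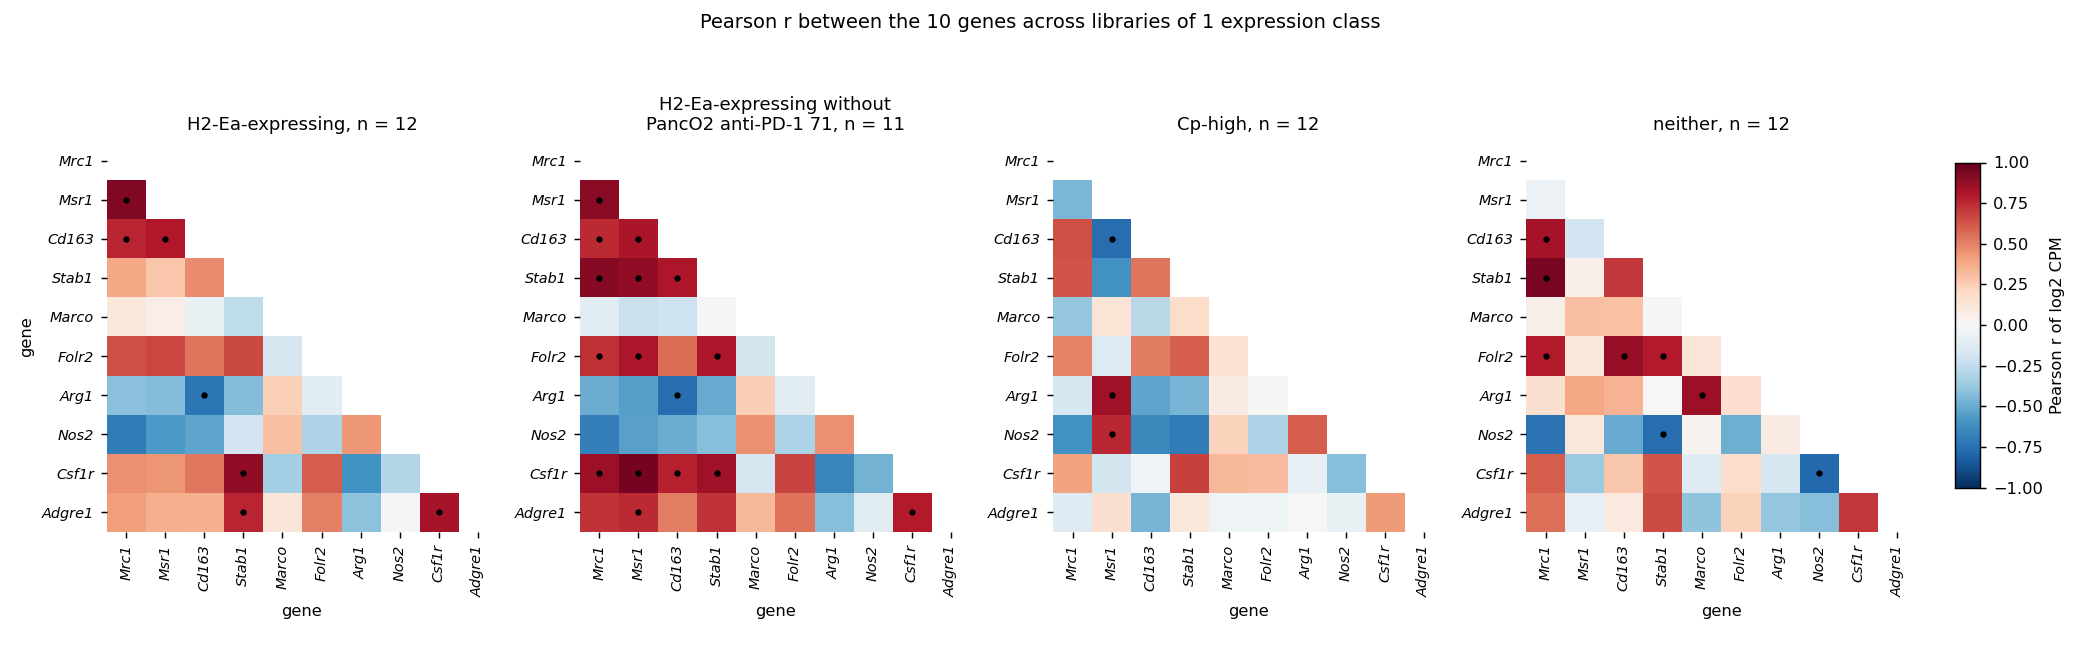
Pearson's r for all pairs of the 10 genes in the H2-Ea-expressing class with and without library 71, in the Cp-high class and in the neither class, with black dots for pairs at an adjusted permutation p under 0.05. The H2-Ea-expressing map gains dots, from 7 to 16, when that library is left out, and the Cp-high map holds 3.

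The shares of highly correlated pairs over all genes are the background for these counts. Among 77619570 pairs of genes, 13.9% reached r of 0.7 in the H2-Ea-expressing class, 4.52% in the Cp-high class and 3.57% in the neither class. Among the 36 pairs of the 9 genes other than Marco, 6 (16.7%), 2 (5.56%) and 7 (19.4%) did. Pairs at -0.7 or below made up 9.62%, 2.82% and 2.85% of all gene pairs, and 1 (2.78%), 1 (2.78%) and 3 (8.33%) of the 36. Without library 71, the H2-Ea-expressing background fell to 3.89% at 0.7 or above and 3.18% at -0.7 or below, while 17 of the 36 pairs (47.2%) reached r of 0.7. The 36 pairs share genes and libraries and are not independent, so no test is given for these shares. At r of 0.7 or above the Cp-high class was close to its background, and so was the H2-Ea-expressing class with library 71 kept.

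**Figure D4:**
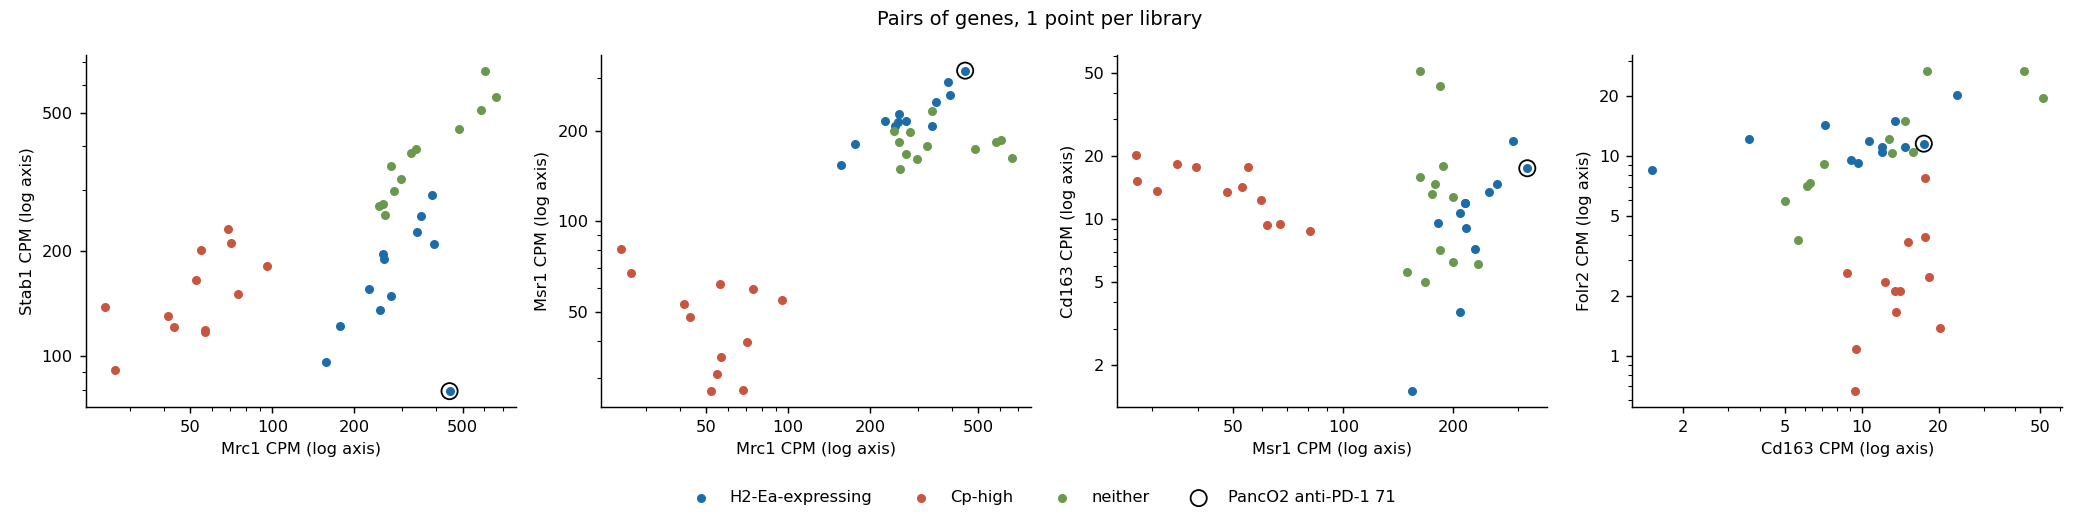
Levels in CPM on log axes for Mrc1 with Stab1, Mrc1 with Msr1, Msr1 with Cd163 and Cd163 with Folr2, 1 point per library, colored by expression class, with library 71 circled. Mrc1 and Stab1 lie along 1 line in the neither class (r = 0.948), and Msr1 and Cd163 slope down in the Cp-high class (r = -0.760).

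Signs were the same in all 3 classes for 23 of the 45 pairs, 15 positive and 8 negative. The same share over all gene pairs was not computed, so this count has no background. The 45 pairs include those with Marco, which was barely detected. Mrc1 and Cd163 were positive throughout, at r = 0.765, 0.645 and 0.828 in the H2-Ea-expressing, Cp-high and neither classes. Mrc1 and Nos2 were negative throughout at r = -0.698, -0.604 and -0.736, as were Cd163 and Nos2 at r = -0.527, -0.644 and -0.501, and none of these 6 values passed the adjusted threshold. The gene with which each transcript moved most closely in all classes was found among 12459 genes by the lowest of its 3 within-class r, as a description. For Mrc1 these were Maf (0.80), a transcription factor of macrophages and T cells, Abca9 (0.74) and Fat4 (0.73). For Stab1 they were the ceramide kinase gene Cerk (0.85), the cathepsin gene Ctsf (0.81) and Zfp974 (0.78), and for Folr2 F13a1 (0.83), Gas6 (0.76) and Ptgr1 (0.69).

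Nos2 had inflammatory genes nearest to it, with the chemokine gene Ccl4 at 0.87, the receptor gene Hcar2 at 0.85 and the interleukin gene Il1b at 0.81. Csf1r had P2rx7 (0.87), a receptor for extracellular ATP, with Atp13a2 (0.87) and Rassf4 (0.85). Adgre1 had Nckap1l (0.77), Ctsb (0.74) and Pik3cg (0.73), Cd163 had Cacna1d (0.73), Clasp1 (0.72) and Svil (0.71), and Arg1 had Rbms1 (0.69), Hmox1 (0.58) and Vmp1 (0.55). Msr1 had Bard1 (0.73), Rad51ap1 (0.57) and Fbxo5 (0.57), which act in DNA repair and the cell cycle. Marco was too low to be compared.

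Markers of other cells were set against the 10 genes within each class, in 150 relations of which 5 passed. In the H2-Ea-expressing class the mean of the macrophage markers rose with Csf1r (r = 0.894) and Adgre1 (r = 0.875, adjusted permutation p = 0.0100 for both). The mean of 8 blood endothelial markers rose with Stab1 (r = 0.894, adjusted permutation p = 0.0060) and Csf1r (r = 0.827, adjusted permutation p = 0.0124) in that class. Stabilin-1 is made by endothelium as well as by macrophages, and the part of endothelial cells in the Stab1 values was not tested. In the neither class the T cell marker mean fell with rising Folr2 (r = -0.804, adjusted permutation p = 0.0477), which did not hold without the 2 farthest libraries (r = -0.573, permutation p = 0.0834). No relation passed in the Cp-high class. By Spearman's rho none of the 5 passed, with adjusted permutation p of 0.0739 to 0.0995. Without the 2 farthest libraries, 1 of them library 71, the endothelial mean gave r = 0.762 with Stab1 and 0.678 with Csf1r.

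Summed levels of other cell types also moved between classes beside the 10 genes. Fibroblast markers had medians of 2514, 5072 and 7821 CPM in the H2-Ea-expressing, Cp-high and neither classes. Lymphatic endothelial markers had medians of 90.7, 24 and 144 CPM and ranges of 66.6 to 112, 15.2 to 41.5 and 99.0 to 309 CPM, the Cp-high class being lowest as for Mrc1, which lymphatic endothelium also expresses. Of the 7 genes of that list, 6 were found and 3 reached a mean of 1 CPM. Blood endothelial sums were 206, 163 and 219 CPM at the median, and T cell sums 36.4, 73.5 and 36.9 CPM. Neutrophil sums were 39.2, 87.5 and 514 CPM, the neither class being highest as for Arg1. The typical neutrophil marker did not share the gap between the Cp-high and neither classes. Of 6 measured, 5 overlapped and 1 was wholly lower in the Cp-high class, with a median log2 ratio of 0.15, Cp-high over neither. Dendritic cell sums were 21.5, 70.2 and 56.8 CPM, mast cell sums 41.1, 60.3 and 15.98 CPM and adipocyte sums 46.5, 70.2 and 21.4 CPM. Skin epithelium and skeletal muscle sums had medians of 3.34, 9.65 and 6.71 CPM and of 46.3, 51.2 and 48.3 CPM. Their part in the differences between classes was not tested.

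All but 1 of the other macrophage markers lacked the low Cp-high position of Mrc1 and Msr1 against the neither class. Of the 18 macrophage markers, 1 (Mertk, a receptor for dying cells) was wholly lower in the Cp-high than in the neither class, at medians of 23.0 and 77.4 CPM. None (0) were wholly higher. Of all genes, 16% were wholly lower and 14.7% wholly higher. Of the same 18, 9 were wholly lower in the H2-Ea-expressing than in the neither class (17.7% of all genes were) and 4 wholly lower than in the Cp-high class (19.5% of all genes). These 4 included the complement gene C1qb (median 142 against 375 CPM) and the chemokine receptor gene Cx3cr1 (27.8 against 114 CPM). Wherever the H2-Ea-expressing class separated from another class in these markers it was the lower one, as it was for Csf1r.

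Of 13 measured genes tied to alternative activation other than Mrc1 and Arg1, 4 were wholly lower in the H2-Ea-expressing than in the Cp-high class, against 19.5% of all genes. Among them, 2 were wholly higher in the Cp-high than in the neither class, a share near the 14.7% of all genes. The chemokine gene Ccl22 was in both counts, at medians of 1.80, 20.3 and 5.06 CPM in the H2-Ea-expressing, Cp-high and neither classes. Ccl17 had medians of 0.203, 3.90 and 1.09 CPM, Retnla of 0.260, 3.36 and 0.309 CPM and Chil3 of 0.290, 2.64 and 12.5 CPM. The class with the lowest Mrc1 thus did not have the lowest median of any of these 4 genes, of which Retnla and Chil3 overlapped throughout. Of 14 measured genes of classical activation other than Nos2, 3 separated the H2-Ea-expressing from the Cp-high class, against 31.7% of all genes. Between the Cp-high and neither classes 0 of them separated, against 30.7% of all genes. Cd80, a costimulatory ligand, was wholly higher in the H2-Ea-expressing class at a median of 24.3 CPM, against 7.60 and 7.22 CPM, while Cxcl9 (91.7, 252 and 44.2 CPM) and Il12b (0.439, 3.71 and 0.791 CPM) overlapped.

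Of 12 measured genes of the scavenger receptor family outside the 10, 3 were wholly higher and 3 wholly lower in the Cp-high than in the neither class, against 14.7% and 16% of all genes. Scara5, a ferritin receptor, was highest in the Cp-high class at medians of 32.7, 191 and 15.0 CPM, in the same class order as above, and Megf10 likewise at 0.0649, 2.89 and 0.0635 CPM. Colec12 was highest in the H2-Ea-expressing class (40.5, 3.02 and 3.16 CPM), and Scarf2 was lowest in the Cp-high class (43.7, 1.40 and 93.6 CPM). Of 4 measured relatives of the mannose and folate receptors and of Adgre1, Mrc2, the collagen receptor of mesenchymal cells, was wholly highest in the neither class at medians of 44.8, 18.5 and 235 CPM. Pla2r1, another mannose receptor relative, was wholly highest in the H2-Ea-expressing class (7.96, 1.36 and 2.29 CPM).

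Among 8 measured genes associated with resident macrophages, 1 was wholly higher and 1 wholly lower in the H2-Ea-expressing than in the Cp-high class. The shares of all genes were 12.2% and 19.5%. Only 1, F13a1, was wholly lower in the Cp-high than in the neither class, against 16% of all genes. F13a1, a coagulation factor gene of macrophages, had medians of 61.5, 10.7 and 151 CPM, and Pf4 had 11.9, 5.89 and 35.2 CPM, while Lyve1 (5.43, 0.899 and 5.17 CPM) overlapped throughout. Timd4, a receptor for dying cells, was wholly highest in the H2-Ea-expressing class at 2.08 CPM, against 0.673 and 0.180 CPM. Of 7 measured genes around CSF1R, 5 were wholly lower in the H2-Ea-expressing than in the neither class, against 17.7% of all genes, among them the ligand gene Il34 (28.7 against 89.9 CPM) and the monocyte chemokine gene Ccl2 (74.4 against 394 CPM). Ccl2 was also wholly lower in the Cp-high class (50.4 CPM), as was Arg1. Among the 11 genes of arginine use other than Arg1 and Nos2, 3 were wholly higher in the H2-Ea-expressing than in the Cp-high class. Only 1, Ass1, was wholly lower. The shares of all genes were 12.2% and 19.5%. Between the Cp-high and neither classes 0 of the 11 separated, against 30.7% of all genes. Ass1, which remakes arginine from citrulline, was at 6.37, 60.5 and 32.5 CPM, Gch1 at 58.2, 15.1 and 8.91 CPM, Slc7a2 at 5.81, 22.1 and 30.4 CPM and Arg2 at 3.28, 0.750 and 1.37 CPM.

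By the labels, none of the 10 genes passed the test for a change with model or treatment. Comparisons used edgeR's quasi-likelihood test on the counts of 16285 to 16510 genes, with Benjamini-Hochberg adjustment, in 3 comparisons of models within IgG libraries, 6 of treatments within a model and 2 of treatments over all 36 libraries with class as a covariate. In all 11, 0 genes passed an adjusted p of 0.05 (0% of those tested), the smallest adjusted p was 0.806, and 25 to 912 genes had an unadjusted p under 0.05. Of 101 tests of the 10 genes, 4 had an unadjusted p under 0.05 by edgeR and none an adjusted one. With labels and classes crossed, each labelled group mixed libraries of different classes, and spread within groups was wide. In counts simulated at that spread, the fit of the MC38 libraries recovered 49.5% of genes changed 4-fold, so such changes can be missed.

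Stab1 came closest to a treatment difference. It was at 96.7, 119, 91.3 and 79.5 CPM in libraries labelled PancO2 anti-PD-1 and at 182, 255, 269 and 191 CPM in those labelled PancO2 IgG, without overlap. The log2 fold change was -1.16 (SE 0.25, edgeR adjusted p = 0.806). The anti-PD-1 group held 0 libraries of the neither class, which has the highest Stab1, and the IgG group held 2, and with class as a covariate the log2 fold change was -0.82 (SE 0.18, edgeR adjusted p = 0.992). Csf1r differed by -0.75 in the same comparison (SE 0.32, edgeR adjusted p = 0.806). Without library 71 these values were -1.09 for Stab1 (SE 0.28, edgeR adjusted p = 0.879) and -0.57 for Csf1r (SE 0.33, edgeR adjusted p = 0.879).

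Nos2 gave the remaining values. It was at 20.2, 4.40, 23.8 and 11.4 CPM in PancO2 anti-CTLA4 libraries and at 61.3, 50.6, 108 and 31.2 CPM in PancO2 IgG libraries, a log2 fold change of -2.10 (SE 0.73, edgeR adjusted p = 1.0). In libraries labelled CT26 anti-PD-1 it was at 11.6, 9.99, 11.5 and 19.2 CPM, against 53.5, 18.4, 20.1 and 47.2 CPM with IgG, a log2 fold change of -1.38 (SE 0.49, edgeR adjusted p = 1.0). The first comparison was without overlap and the second was not. Over all libraries with class as a covariate, Nos2 differed by -0.79 (SE 0.45, edgeR adjusted p = 0.928) with anti-PD-1 and Mrc1 by 0.34 (SE 0.20, edgeR adjusted p = 0.928), the extremes of the 10 genes. With anti-CTLA4 the extremes were -0.58 for Nos2 (SE 0.42) and 0.19 for Stab1 (SE 0.18).

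**Figure D5:**
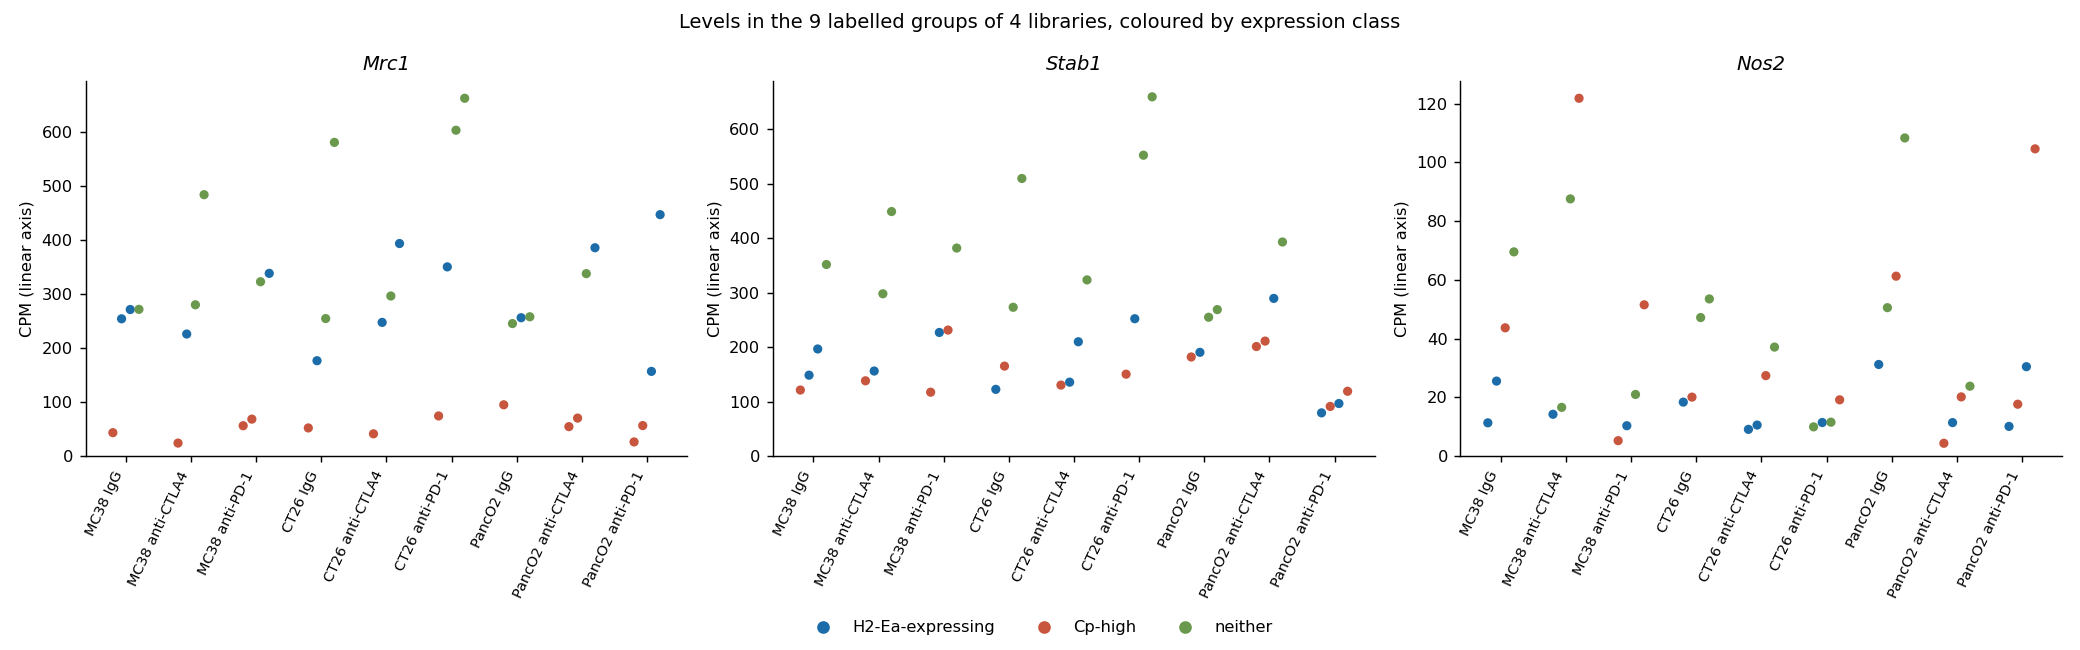
Mrc1, Stab1 and Nos2 in CPM in the 9 labelled groups of 4 libraries, colored by expression class. For Mrc1 the Cp-high libraries sit lowest in each group that holds them, and Stab1 in the 4 PancO2 anti-PD-1 libraries (79.5 to 119 CPM) lies below the 4 PancO2 IgG libraries (182 to 269 CPM).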

How the data were processed

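The authors deposited unnormalized counts of reads for each Ensembl gene. The authors mapped reads from poly-A selected TruSeq V2 libraries with TopHat and Bowtie2 to GRCm38/mm10 and counted them with HTSeq 07.2, after FastQC 0.11.5. The Ensembl release and the use of strand are not given in the sources used here, so overlapping and antisense genes are uncertain, and HTSeq sets aside reads with more than 1 position. The 5 summary lines without a gene were left out. They made up 44.8% to 63.4% of listed reads in 35 libraries and 86.5% in library 71. Symbols were found for 32608 identifiers. RPKM used the union of exons in the GENCODE annotation of GRCm38, and positions come from it.

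The 10 genes and the 19 gene lists were chosen with earlier results of these data known. Genes beyond the 10 and the 2 class genes were named by rule, as up to 3 nearest genes of each of the 10 and up to 4 genes per list with the widest gap between class medians. Not every gene that met the list part is reported here.

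Labelled comparisons used edgeR 4.0.16 in R 4.3.3 (filterByExpr, TMM, robust quasi-likelihood fit). An adjusted p under 0.05 was called, and SEs were derived from the fold change and the F statistic (log2 fold change over root F). limma-voom (limma 3.58.1), DESeq2 1.42.0, no count filter and each library left out were alternatives. The class covariate was built from the libraries' own expression. The fits were tested on simulated counts with 200 genes changed 4-fold under the anti-PD-1 label. With the dispersion (spread between libraries) estimated from the data, edgeR recovered 49.5% of them in the MC38 libraries and 94.5% over all libraries. At a dispersion of 0.04 it recovered 97.5% and 99%. A fit within 1 labelled model can thus miss changes of that size. Each library has its own mouse number in the labels, and no 2 libraries agree within sampling noise (smallest chi-square per degree of freedom 7.01 over 630 pairs). Correlations and ratios were computed with scipy 1.17.1, pandas 2.3.3 and numpy 2.4.6 under Python 3.11.15. The relations with marker means, the pairs without Marco, the gene-pair background without library 71 and the levels without libraries 40 and 41 were added after seeing the data.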

Additional observations from a re-analysis of the deposited data

Results flagged for a closer look

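In 11 of 90 tests of 1 gene in 1 labelled group of 4, the highest or lowest library lay apart by Dixon's 95% limit for the gap to the nearest library over the range, where chance gives about 4.5. That chance value holds for groups drawn from 1 normal distribution, which groups of mixed classes need not be. The same count over all genes was not computed. In 7 of the 11 the library was of a class that none of the other 3 held. Every labelled group except PancO2 anti-PD-1 held such libraries, so this count alone does not set the 11 apart. Cp-high libraries were low in Mrc1 at 43.5 CPM (MC38 IgG 7, others 254 to 272 CPM) and 95.1 CPM (PancO2 IgG 48, others 245 to 258 CPM), in Msr1 at 27.1 CPM (CT26 IgG 28, others 182 to 184 CPM) and in Folr2 at 2.11 CPM (CT26 anti-CTLA4 36, others 10.4 to 12.1 CPM). The Cp-high library PancO2 IgG 48 was high in Cd163 at 17.7 CPM (others 5.61 to 7.18 CPM). Neither-class libraries were high in Arg1 at 313 CPM (MC38 IgG 2, others 70.8 to 87.9 CPM) and 460.0 CPM (PancO2 anti-CTLA4 61, others 45.2 to 73.2 CPM).

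The remaining values lay apart from a group that also held their own class. CT26 anti-PD-1 41 had 51.2 CPM of Cd163 (others 12.4 to 18 CPM) and 2.39 CPM of Marco (others 0 to 0.0600 CPM), and PancO2 IgG 51 had 1.004 CPM of Marco (others 0.0422 to 0.196 CPM). CT26 anti-CTLA4 34 was low in Cd163 at 3.61 CPM (others 14.2 to 15.9 CPM). In 60 comparisons of treatment effects between models, none had treated libraries wholly above the IgG libraries in 1 model and wholly below them in the other.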

How the results depend on the processing

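No paired analysis was possible because each mouse number belongs to 1 library. Of the recomputed log2 ratios of class medians, 197 moved by less than 1 SD and 7 by more. In place of Csf1r (1.51 for Msr1 and 0.01 for Stab1, H2-Ea-expressing over neither; -0.96 for Stab1, Cp-high over neither), division by Adgre1 gave 1.095, -0.48 and -1.53. Division by the summed macrophage markers gave 1.003 and -0.45 for the first pair of values, and -0.079 and -0.063 for Adgre1 in the H2-Ea-expressing class over the Cp-high and neither classes (0.21 and 0.46 over Csf1r). The 7 called pairs of the H2-Ea-expressing class became 4 with TMM-scaled CPM and 16 without library 71. With TMM-scaled CPM, Msr1 and Cd163 (r = 0.764), Cd163 and Arg1 (-0.684) and Stab1 and Adgre1 (0.694) were no longer called there, nor Msr1 and Cd163 in the Cp-high class (-0.742). Stab1 and Adgre1 were not called without library 71 (0.724). The cause was not tested.

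Genes called by label stayed at 0 in 163 of 167 alternatives, including every library left out (0 to 0). DESeq2 called 1 gene for PancO2 over MC38, 1 for CT26 over MC38, and in PancO2 2 for anti-CTLA4 and another 2 for anti-PD-1, each over IgG, none of them among the 10. Fold changes under these alternatives were compared only for the 4 tests of the 10 genes with an unadjusted edgeR p under 0.05. These were of Stab1, Csf1r and Nos2. All 68 recomputed values kept their direction and side of the threshold, and the other tests of the 10 genes were not compared in this way. Marco, at 0 to 68 counts per library, cannot be ranked at this depth.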
